A study of Arabidopsis thaliana with 6 samples.

Results

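*fio1-1* is an EMS-induced allele of *FIONA1* (*FIO1*), a splice-site mutation that removes a few amino acids from the protein. Its seedling transcriptome was compared here with that of the Col-0 wild type, gene by gene and isoform by isoform. Direct RNA sequencing reads the poly(A) RNA molecule itself, captured by a poly(dT) adapter, and the deposited table gives estimated counts for 56591 isoforms of 33314 genes. After the isoform counts of each gene were added up, the comparison took in 16426 genes, those that reached 20 counts in the 3 libraries together.

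The libraries were made from *fio1-1*, *fio1-5* and Col-0 seedlings, all of the Col-0 ecotype, grown in long days on MS medium to an age of 14 days without another treatment. *fio1-5* is a CRISPR-induced deletion allele, named *fio1-2* in the table, and is shown beside *fio1-1* for reference. Both mutants were compared with the same Col-0 library. Each genotype has 1 library, so no test between genotypes is possible, and every interval given covers counting error only. The labels list both an Illumina and a Nanopore library per genotype, and the columns name no platform. The values are taken as Nanopore counts here, because the study describes the series as Nanopore direct RNA sequencing. The study does not describe the count table itself. Seedlings were taken whole, so a difference in level cannot be told apart from a difference in the share of a tissue or cell type.

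FIO1 belongs to the METTL16 family of methyltransferases and places m6A, a methyl mark on adenosine, on the U6 small nuclear RNA and on some mRNAs. U6 RNA is the part of the spliceosome that pairs with the 5′ splice site at the start of an intron. *fio1* mutants of *Arabidopsis* are known for early flowering, and *FLC* encodes a MADS-box repressor of flowering.

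The libraries held 4351543 (*fio1-1*), 4682799 (*fio1-5*) and 4602836 (Col-0) counts summed over genes. Of the 16426 genes, 9.50% were at least 2-fold higher in *fio1-1* than in Col-0 and 4.29% at least 2-fold lower, and these are the genes said to have risen or fallen. The median gene had a log2 ratio of -0.01. *FIO1* itself had 17 counts in *fio1-1* beside 30 in *fio1-5* and 25 in Col-0, a ratio within counting error (95% interval 0.377 to 1.44). Its count cannot check the label, since the mutation changes splicing rather than removing the gene. *FLC* was counted 1 time in *fio1-1*, 4 times in *fio1-5* and 33 times in Col-0.

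Of the 10 genes that rose most in *fio1-1*, 7 encode berberine bridge enzyme-like oxidases, a peroxidase, proline-rich lipid transfer proteins or germin-like proteins, and the other 3 are an ABC transporter-like gene and 2 genes without a described function. *AT1G26390*, a berberine bridge enzyme-like flavin oxidase, had 106 counts in *fio1-1* against 1 in *fio1-5* and none in Col-0, and was at least 38.7-fold higher than the level of 3 counts that a count of 0 allows. Its neighbour *AT1G26380*, an oxidase of the same family that works in the indole branch of defence metabolism, had 110, 3 and 2 counts. Both were high in *fio1-1* alone, and the ratio for *AT1G26380* was 60.2 (95% interval 16.3 to 504).

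The *EARLI1* cluster on chromosome 4, which encodes hybrid proline-rich proteins of the lipid transfer type, was high in *fio1-1* alone in 4 neighbouring genes. *AZI1*, required for the priming of systemic immunity, had 4124 counts in *fio1-1* beside 488 in *fio1-5* and 336 in Col-0, which is 13.4-fold higher in *fio1-1* than in Col-0 (12.0 to 15.1). *EARLI1* had 1339, 41 and 57 counts (25.7-fold, 19.7 to 34.2). *AT4G12490* had 201, 0 and 5 counts and *AT4G12500* had 179, 1 and 1. In all 4 the *fio1-5* library was close to Col-0 or below it. The next 2 genes of the family along the chromosome went another way, with 508, 659 and 240 counts for *AT4G12510* (2.32-fold) and 737, 948 and 488 for *AT4G12520* (1.65-fold), and both were highest in *fio1-5*. These genes are similar in sequence, and reads may have been divided among them.

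*AT5G64120*, which encodes the cell wall Peroxidase 71, had 2155 counts in *fio1-1* against 92 in *fio1-5* and 64 in Col-0 (36.9-fold, 28.8 to 48.1). *GLP9*, a germin-like protein of the apoplast, had 194, 2 and 5 counts (42.5-fold, 17.9 to 132). *AT3G18250*, annotated as an uncharacterized protein, had 170, 15 and 6 counts (31.0-fold, 14.0 to 85.7), and *AT3G21080*, an ABC transporter-like gene, had 104, 11 and 1. The transcript *AT2G01422*, which has no description, had 658 counts against 183 and 3, and the germin-like gene *AT5G38910* had 130, 37 and 1. Both were also well above Col-0 in *fio1-5*.

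The germin-like proteins as a list moved in both directions, with 8 of 15 genes higher in *fio1-1*, 2 lower and a median log2 ratio of 1.25. *GLP9* reached the count minimum only through *fio1-1*. Its rise was thus partly set by the minimum, and it lifts the count and the median. The summed level was lower, at 2307 CPM (counts relative to the scaled library size) in *fio1-1* beside 2779 in *fio1-5* and 3121 in Col-0. This sum rests on *GER3*, which had 3570, 5325 and 8526 counts (2.18-fold lower, 2.1 to 2.27), and on *GER1*, which had 3664, 5527 and 5010. *GLP5* had 1405, 1169 and 647 counts (2.38-fold higher).

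The genes that fell most form a more mixed group. *AT2G30766*, annotated as an uncharacterized protein, had 11 counts in *fio1-1* beside 6 in *fio1-5* and 265 in Col-0 and was 22-fold lower in *fio1-1* (12.1 to 44.6). *MBP1* encodes a myrosinase-binding lectin and had 41, 72 and 681 counts, a 15.2-fold difference (11.1 to 21.3). *CPB*, the beta subunit of the capping protein that closes the growing end of actin filaments, had 24, 28 and 166 counts (6.32-fold lower, 4.1 to 10.1). Each of these 3 genes was low in both mutant libraries and high in Col-0.

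A chloroplast manganese and calcium transporter, *PAM71* (*AT1G64150*), had 14 counts in *fio1-1* against 26 in *fio1-5* and 100 in Col-0 (6.52-fold lower, 3.71 to 12.4). *COG0212*, related to the cyclo-ligases of folate metabolism, had 45, 73 and 264 counts, and *GLYR2*, an organellar reductase that detoxifies aldehydes, had 21, 24 and 102. The remorin gene *AT1G13920* differed between the alleles, with 26 counts in *fio1-1* beside 107 in *fio1-5* and 178 in Col-0. *AT1G47395*, annotated as an uncharacterized protein, had 21, 10 and 131 counts (5.70-fold lower, 3.58 to 9.51). The other falls among the 10 largest were *AT5G05060*, with 94, 96 and 435 counts, and *AT3G01920* (7.84-fold lower).

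**Figure D1:**
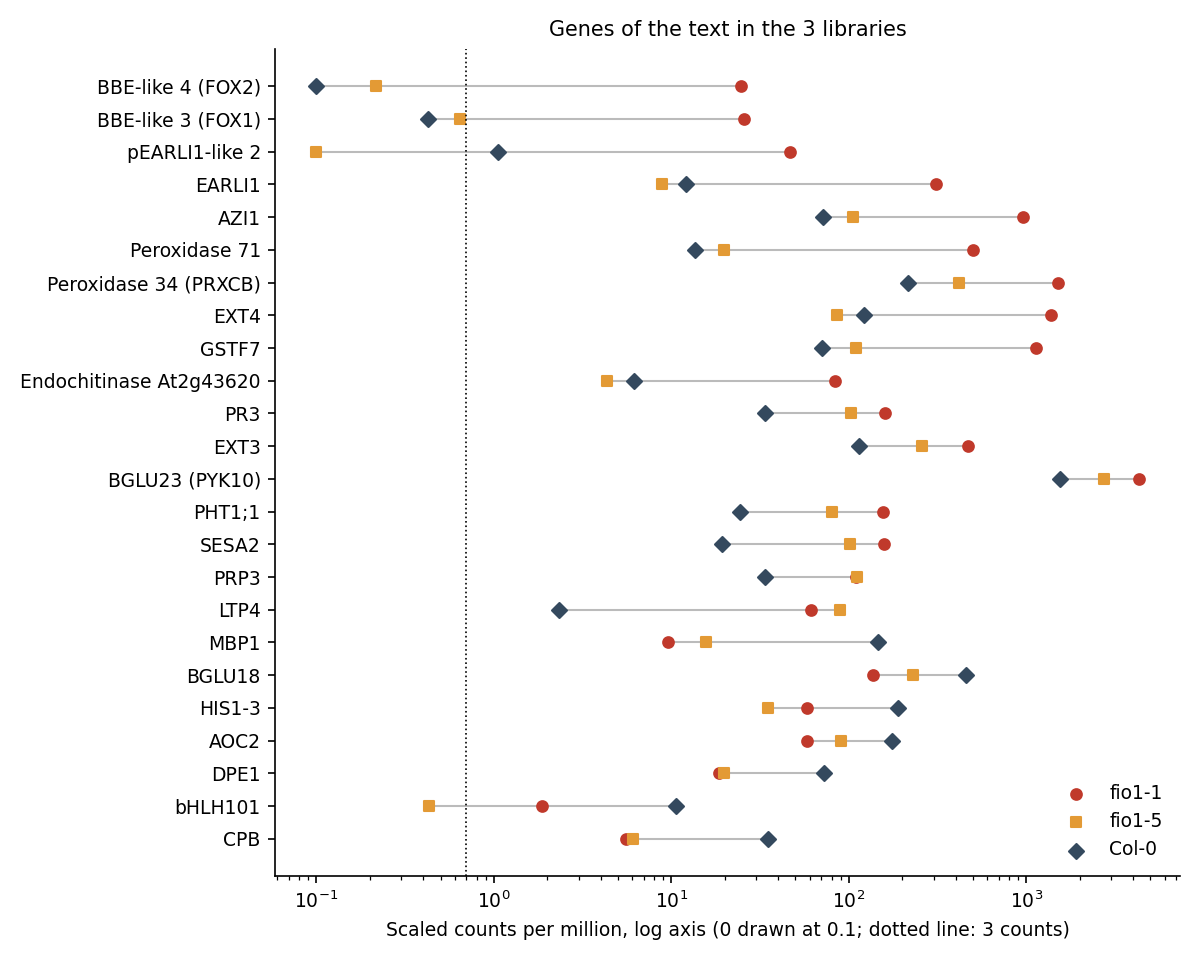
Scaled CPM (log axis) of 24 genes of the text in the *fio1-1* (circles), *fio1-5* (squares) and Col-0 (diamonds) libraries, with a count of 0 drawn at 0.1 and the dotted line at 3 counts in *fio1-1*. Genes such as *EARLI1* and *EXT4* were high in *fio1-1* only, *PRP3* was at a like level in both mutants, and *MBP1* and *CPB* were low in both.

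Gene families taken from the annotation columns of the table were then ranked by their median log2 ratio, for families with 10 to 200 genes past the count minimum. Families that shared more than 50% of their genes were first merged into the larger one. Among the 8 merged families with the highest medians, most are cell wall, secreted or defence-related groups, and 1 is that of the lipid storage bodies of seeds. The structural constituents of the cell wall stood first of the merged families, with 18 of 23 genes higher in *fio1-1*, none lower and a median of 1.69. The cysteine-rich secretory (CAP) proteins, to which PR1 belongs, had 8 of 12 genes higher and 1 lower (median 1.47), and genes annotated to the response to oomycetes had 14 of 19 higher (median 1.42). *DMR6*, an enzyme that turns over salicylic acid, had 270, 150 and 79 counts in *fio1-1*, *fio1-5* and Col-0, and the lectin gene *AT3G16530* had 1361, 698 and 266. Of 13 genes annotated to the extracellular matrix 7 rose and 1 fell, and among them *PSK4*, a precursor of the growth peptide phytosulfokine, had 903, 509 and 354 counts (2.79-fold, 2.47 to 3.17). Over all genes 9.50% rose and 4.29% fell. Each count of risen or fallen members of a list or family is to be read beside these shares. Some members reach the count minimum only through the library in which they are high. Their rise or fall is then partly set by the minimum.

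**Figure D2:**
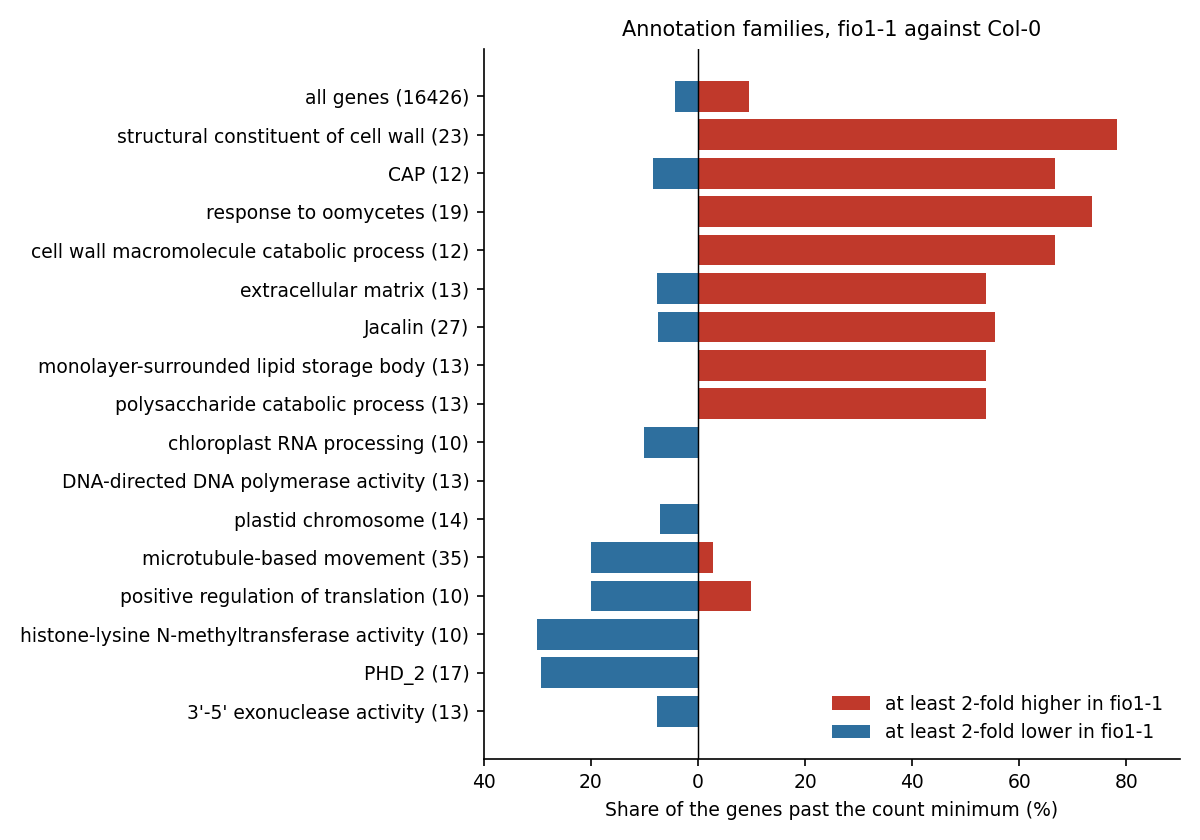
Share of the genes past the count minimum (number in parentheses) that were at least 2-fold higher (right) or lower (left) in *fio1-1* than in Col-0, for all 16426 genes and for the 8 annotation families with the highest and the 8 with the lowest median log2 ratio after families that share most of their genes were merged into the larger one. The upper families reach 18 of 23 genes higher, and the lower families reach 3 of 10 genes lower, for the histone-lysine methyltransferases. Of all genes 9.50% were higher and 4.29% lower.

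Of the 23 genes in the cell wall group 16 are extensins. These are rod-like glycoproteins that peroxidases cross-link into the wall. Of the 17 genes with an extensin domain past the minimum, 16 rose in *fio1-1* and the median log2 ratio was 1.90, against 1.47 for *fio1-5* over Col-0. The most counted extensin, *EXT4*, is not annotated to the cell wall group. The merging had placed the berberine bridge enzymes (in a FAD-binding family with a median of 0.57) and the family 19 chitinases (in cell wall catabolism, 1.19) in larger families as well. The extensins and the other 5 protein families named with a domain below were picked after their values had been seen, so their counts are a description. Some of their risen members, such as *AT4G12500* and the peroxidase gene *PER4*, reached the count minimum only through *fio1-1*.

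*EXT4* had 5879 counts in *fio1-1* against 399 in *fio1-5* and 572 in Col-0 (11.3-fold, 10.3 to 12.3). *EXT3*, which forms the scaffold of the new cell plate, had 2014, 1189 and 539 counts (4.09-fold, 3.72 to 4.51). *EXT4* was thus high in *fio1-1* alone and *EXT3* in both mutants. *EXT12* had 52, 26 and 8 counts, and the extensin-like *AT1G26250* had 101, 7 and 5. The repeats of extensin genes are alike, which makes the division of reads among them uncertain.

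Several extensins are expressed in root hairs, and the root hair markers were higher too. Of 6 markers of root hairs and root epidermis past the minimum, *MRH6* reached it only through the mutant libraries, in which it is high, and so had to differ. The other 5 were 2.04-fold to 3.27-fold higher in *fio1-1*, and the summed level of the 6 was 233 CPM in *fio1-1* against 243 in *fio1-5* and 79.4 in Col-0. *PRP3*, a proline-rich wall protein of root hairs, had 475 counts in *fio1-1* beside 513 in *fio1-5* and 159 in Col-0. *RHS19* and the expansin *EXPA7* moved likewise, with 258, 283 and 98 counts and with 109, 133 and 40. *MRH6*, needed for hair shape, had 9, 11 and 0 counts and was the only marker at 0 in a library.

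Markers of the endodermis were above Col-0 without reaching 2-fold. All 6 past the minimum had a log2 ratio above 0 (median 0.77), and none passed 2-fold. *CASP1*, a scaffold protein of the Casparian strip, had 621, 775 and 380 counts. The 5 xylem markers had a median of 0.56 and 1 of them rose, *XCP1*, a protease of dying vessel cells (57, 58 and 25 counts). The 6 mesophyll markers had a median of 0.02, which became negative under total-count and TPM scaling. The part of these tissue markers in the results for the extensins, peroxidases, phosphate genes and ER body genes was not tested.

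Class III peroxidases, which consume hydrogen peroxide in the wall and also produce it, numbered 61 with the related haem peroxidases. Of them 23 were higher in *fio1-1*, 2 lower, and the median log2 ratio was 0.82. *PRXCB*, which contributes to the oxidative burst, had 6462 counts in *fio1-1* against 1942 in *fio1-5* and 1007 in Col-0 (7.03-fold, 6.58 to 7.52). *AT2G37130* had 5709, 2527 and 1325 counts (4.72-fold). Both genes were highest in *fio1-1* and lowest in Col-0, with *fio1-5* between.

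Of the 16 berberine bridge enzyme-like oxidases 10 rose and 1 fell, with a median log2 ratio of 1.75. *AT1G26380*, *AT1G26390*, *AT1G26410* and *AT1G26420* reached the count minimum only through *fio1-1*, in which they are high. Their rises were thus partly set by the minimum, and they lift the count and the median. *AT1G30730* had 196, 49 and 19 counts and *AT1G30720* had 143, 46 and 20, in the order *fio1-1*, *fio1-5*, Col-0. *AT4G20830*, an oxidase of wall oligosaccharides, had 666, 265 and 210 counts. The gene that fell, *AT2G34810*, had 33 counts in *fio1-1* beside 91 in *fio1-5* and 122 in Col-0.

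Glutathione S-transferases, which conjugate glutathione to toxic or reactive compounds, rose in 15 of 47 cases with no fall and a median of 0.42. *GSTF7* had 4871 counts in *fio1-1* against 511 in *fio1-5* and 333 in Col-0 (16.0-fold, 14.3 to 18.0), and *GSTF6* had 3200, 358 and 251 (14.0-fold, 12.3 to 15.9). This pair is nearly identical in sequence, and each takes the value it has only as far as the reads could be told apart. *GSTF2*, which binds indole compounds such as camalexin, had 6363, 2149 and 1753 counts. *GSTF9*, by contrast, had 9123, 8993 and 7465, within 2-fold.

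Chitinases of glycosyl hydrolase family 19 cleave the chitin of fungal walls. Of 10 past the minimum 7 rose (median 1.39). *AT2G43620* had 360 counts in *fio1-1* beside 20 in *fio1-5* and 29 in Col-0 (13.6-fold, 9.30 to 20.6). *PR3* (*HCHIB*), the basic chitinase, had 682, 476 and 159 counts (4.70-fold, 3.95 to 5.62). The 2 genes differed in *fio1-5*, in which the former stayed near Col-0.

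Among 30 genes with a hydrophobic seed protein domain, the family that holds *AZI1* and *EARLI1*, 11 rose and 2 fell (median 0.51). *AIR1*, an auxin-induced root gene, had 1359, 316 and 411 counts, and its neighbour *AT4G12545* had 790, 283 and 173. Of the lipid transfer proteins as a list, 5 of 11 rose and none fell. *LTP2*, a cuticle lipid carrier, had 5851 counts in *fio1-1* against 2656 in *fio1-5* and 2549 in Col-0, while *LTP5* had 3409, 4468 and 2997.

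Genes of the salicylic acid pathway and its pathogenesis-related targets were read next. Of 14 past the minimum 4 rose, none fell and the median was 0.36. *PR4*, a hevein-like antifungal protein, had 2773 counts in *fio1-1* beside 1298 in *fio1-5* and 904 in Col-0 (3.36-fold, 3.12 to 3.63). *PAD3*, the last enzyme of camalexin synthesis, had 72, 24 and 14 counts (5.63-fold, 3.15 to 10.8). *FMO1*, which makes the mobile immune signal N-hydroxypipecolic acid, had 21, 8 and 5. It reached the count minimum only through *fio1-1*, so its rise was partly set by the minimum.

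The classical salicylic acid markers did not pass 2-fold. *PR1* had 29 counts in *fio1-1* against 10 in *fio1-5* and 25 in Col-0, and *PR5* had 25, 20 and 27. *ICS1*, which supplies most salicylic acid under infection, had 19, 12 and 11 counts, a ratio of 1.89 (0.856 to 4.40). The receptor *NPR1* was level, at 108, 122 and 121. *PRB1*, the basic relative of *PR1* in the CAP family, fell from 43 counts in Col-0 to 4 in *fio1-1* (14 in *fio1-5*). It reached the count minimum only through Col-0.

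Jasmonate genes, which act in defence against insects and necrotrophs, fell in 3 of 16 cases and rose in 1 (median -0.19). *AOC2*, the chloroplast cyclase of jasmonate synthesis, had 251 counts in *fio1-1* beside 419 in *fio1-5* and 826 in Col-0 (3.0-fold lower, 2.61 to 3.47). *AOS*, the enzyme one step before, had 319, 450 and 799 (2.29-fold lower, 2.01 to 2.61). *AOC1* had 118, 124 and 209, within 2-fold. For *AOC2* and *AOS* *fio1-1* was the lowest library, while *AOC1* was at 27.4 CPM in *fio1-1* and 26.8 in *fio1-5*.

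The myrosinase system splits glucosinolates, the sulfur-rich defence compounds of the cabbage family, and its genes moved in both directions. Of 21 genes 11 rose and 3 fell, with a median of 1.21. The genes that rose belong largely to the ER body, a store of beta-glucosidase that is plentiful in roots. *BGLU23* (*PYK10*), its main enzyme, had 18449 counts in *fio1-1* against 12700 in *fio1-5* and 7287 in Col-0 (2.77-fold, 2.7 to 2.85). *PBP1*, the lectin that gathers PYK10 into aggregates, had 8762, 5022 and 3263 counts (2.94-fold, 2.82 to 3.06). The related lectins *JAL34* and *JAL33* had 641, 332 and 219 and 2350, 1469 and 968 counts.

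*NSP1*, a specifier protein that directs glucosinolate breakdown to nitriles, had 1557, 957 and 673 counts, and *NSP2* had 81, 53 and 14 (6.34-fold, 3.57 to 12.1). The genes that fell were *MBP1*, *BGLU18* and *TGG2*. *BGLU18*, which releases abscisic acid from its glucose ester, had 591 counts in *fio1-1* beside 1071 in *fio1-5* and 2152 in Col-0 (3.32-fold lower, 3.03 to 3.65). *TGG2*, a myrosinase of guard cells and phloem idioblasts, had 516, 973 and 1264, and its partner *TGG1* had 1432, 2230 and 2388, within 2-fold. For *BGLU18*, *TGG2* and *TGG1* alike *fio1-1* was the lowest library.

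Jacalin-like lectins overlap with that list. Of 27 lectin genes 15 rose and 2 fell, and *JAX1*, a lectin known to restrict potexviruses, was the second to fall with *MBP1* (30 counts in *fio1-1* against 40 in *fio1-5* and 76 in Col-0). Glucosinolate synthesis genes stayed closer to Col-0, with 3 of 26 higher (9.50% of all genes were), none lower and a median of 0.38. *UGT74B1*, which adds glucose to the thiohydroximate, had 236, 104 and 83 counts (3.11-fold, 2.42 to 4.05). *CYP83B1*, an enzyme of the indole branch, had 897, 616 and 464 (2.12-fold, 1.89 to 2.37), below 2-fold with TPM (log2 ratio 0.93).

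**Figure D3:**
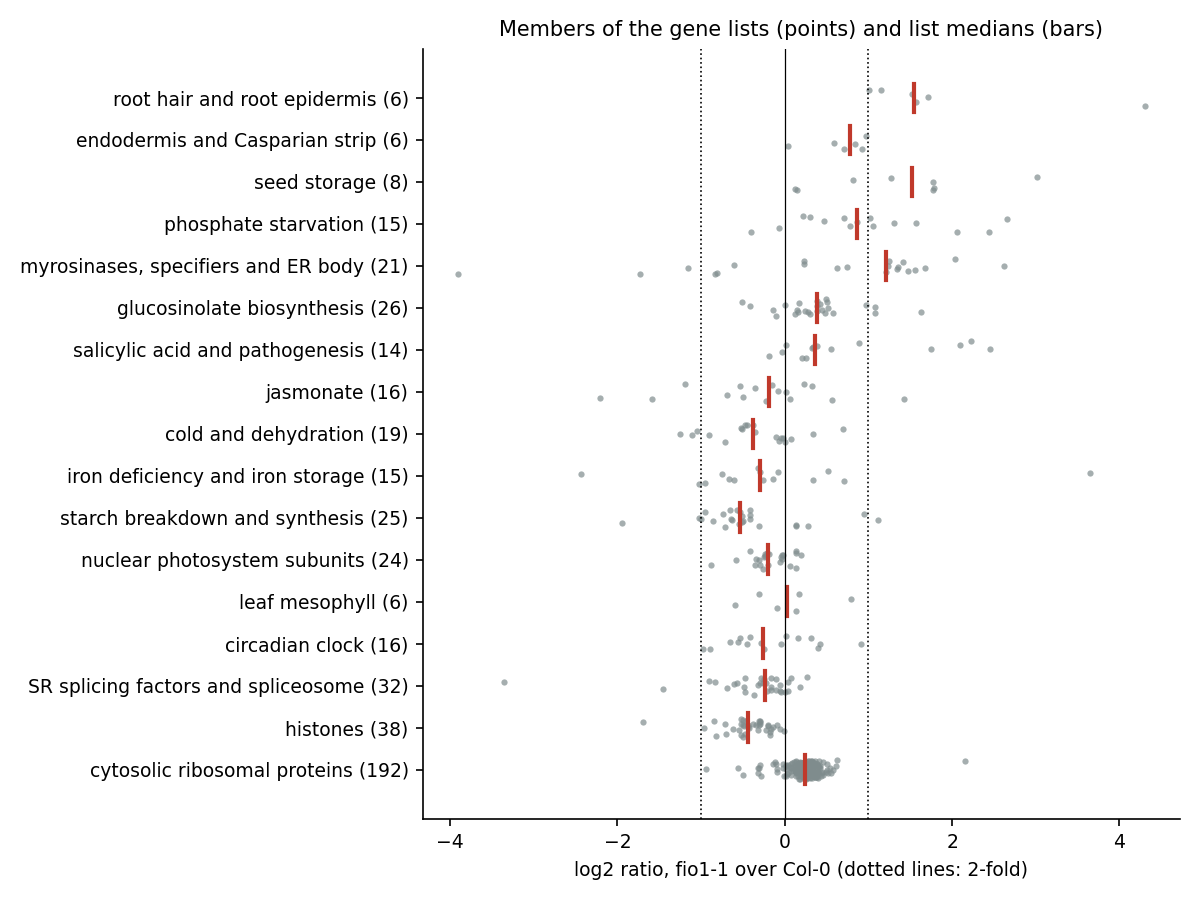
Log2 ratio of *fio1-1* over Col-0 for each gene past the count minimum (grey points, vertical position within a list is random) in 17 gene and marker lists, with list medians as red bars and 2-fold as dotted lines. Root hair markers lie wholly to the right of 2-fold, all 38 histone genes lie below 0, and the 192 ribosomal protein genes cluster just above 0 around a median of 0.25.

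Phosphate starvation genes, which are switched on when roots lack phosphate, rose in 7 of 15 cases with none lower (median 0.86). *PHT1;1*, the main phosphate importer of roots, had 667 counts in *fio1-1* beside 374 in *fio1-5* and 115 in Col-0 (6.35-fold, 5.20 to 7.81), and *PHT1;4* had 154, 95 and 40 (4.22-fold, 2.96 to 6.13). The noncoding RNA *AT4* (*AT5G03545*), a decoy of the phosphate-regulating miR399, had 1534, 1568 and 827 counts (2.03-fold, 1.87 to 2.21). For *AT5G03545* the difference was below 2-fold under total-count scaling (log2 ratio 0.97) and with TPM (0.87). *SPX1*, the phosphate sensor, stayed within 2-fold at 323, 323 and 194. *SQD1*, for sulfolipid synthesis in plastids, had 404, 602 and 583.

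In the iron list most genes lay below Col-0, 11 of 15, but few passed 2-fold: 1 rose and 2 fell (median -0.30). The *IMA* peptide genes of the list are not among these 15, since neither the table nor the reference gives a locus by those names. That does not make them absent from the data, where they may stand under loci annotated as uncharacterized proteins. *NAS3*, a nicotianamine synthase, had 40 counts in *fio1-1* against 32 in *fio1-5* and 3 in Col-0, a ratio of 14.6 (4.65 to 73.8). *BHLH101*, a transcription factor that turns on iron uptake, had 8, 2 and 50 counts (5.71-fold lower, 2.68 to 13.9). It reached the count minimum only through Col-0, so its fall was partly set by the minimum. Its relatives *BHLH38* (2, 0 and 17 counts) and *BHLH100* (1, 1 and 11) did not reach the minimum. The iron importer *IRT1* had 21, 5 and 45, a difference just short of 2-fold with an interval of 1.14 to 3.46 for Col-0 over *fio1-1*. *FER1*, an iron store of plastids, had 1347, 1406 and 901.

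Seed storage transcripts, normally cleared after germination, were still present and were higher in *fio1-1*. Of 8 genes 5 rose (median 1.52), and the summed level was 1508 CPM in *fio1-1* beside 970 in *fio1-5* and 457 in Col-0. *CRU3*, a 12S globulin, had 3007, 2114 and 966 counts (3.41-fold, 3.17 to 3.67). *SESA2*, a 2S albumin, had 677, 472 and 91 (8.15-fold, 6.54 to 10.3), whereas its near copy *SESA3* had 89, 37 and 88. No gene of this list was at 0 in any library.

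The seed storage list of 8 genes includes the oleosins *OLEO1* and *OLEO2*, which coat oil bodies, and both are among the 5 that rose. *OLEO1* had 859 counts in *fio1-1* against 634 in *fio1-5* and 276 in Col-0 (3.41-fold, 2.97 to 3.92), and *OLEO2* had 922, 640 and 417 (2.42-fold, 2.15 to 2.73). Of 13 genes annotated to lipid storage bodies 7 rose and none fell. One of these has another role, *DOX1*, a defence-induced alpha-dioxygenase, with 1473, 1013 and 532 counts. Whether the storage transcripts came from remnants of seed tissue was not tested.

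Starch metabolism was on the low side. Of 25 genes 20 lay below 0, 2 fell, 1 rose and the median was -0.53, while 4.29% of all genes fell. *DPE1*, which recycles short glucans inside chloroplasts, had 80 counts in *fio1-1* beside 92 in *fio1-5* and 340 in Col-0 (3.88-fold lower, 3.03 to 5.01). *SBE2.1*, a branching enzyme, had 231, 293 and 513 (2.03-fold lower, 1.73 to 2.38). *PHS2*, the cytosolic phosphorylase, had 676, 916 and 1341 counts, within 2-fold.

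Cold and dehydration genes were lower in part, 3 of 19 by at least 2-fold with none higher (median -0.38). *COR15A* and *COR15B*, which protect chloroplast membranes in frost, had 421, 521 and 955 and 1112, 1248 and 2631 counts. *P5CS1*, the first enzyme of proline synthesis, had 108, 127 and 283 (2.39-fold lower, 1.91 to 3.01). *KIN2* was the most counted of the list, with 9580, 13446 and 19684 counts (1.88-fold lower, 1.83 to 1.92). It passed 2-fold when the deposited TPM values were used, with a log2 ratio of -1.06.

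Genes for the photosynthetic machinery differed little. Of 24 nuclear photosystem subunit genes none passed 2-fold and 19 lay below 0 (median -0.20). *PSBR* had 28116 counts in *fio1-1* against 35621 in *fio1-5* and 39274 in Col-0. Of 19 chlorophyll synthesis genes 1 fell, *OEP16-1* (1623, 2092 and 3900 counts), a pore of the outer plastid envelope. *CAB2* was the exception among 17 antenna genes, at 12726, 20242 and 5818 counts, but its near-identical neighbour *CAB1* had 177860, 218453 and 255151, and reads may have moved between them.

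Plastid gene expression factors were lower as a group without large changes. All 14 genes annotated to the plastid chromosome had log2 ratios below 0 (median -0.53), and 1 of them fell, *PTAC16* (483 counts in *fio1-1* beside 726 in *fio1-5* and 1145 in Col-0). *PTAC3* had 75, 149 and 159 counts (log2 ratio -0.95, or -1.01 with TPM) and *WHY1*, a DNA-binding Whirly protein, had 67, 113 and 123. Of 10 chloroplast RNA processing genes 1 fell, *SVR7*, a pentatricopeptide repeat protein needed for ATP synthase translation (91, 218 and 210 counts). In *PTAC3*, *WHY1* and *SVR7* the *fio1-5* library was near Col-0.

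Histone genes lay on one side of Col-0. All 38 past the minimum had log2 ratios below 0, from -1.70 to -0.01 with a median of -0.43, while over all 16426 genes 8297 lay below 0. Only *HIS1-3*, the drought-inducible linker histone, fell by 2-fold or more, with 248 counts in *fio1-1* against 162 in *fio1-5* and 884 in Col-0 (3.25-fold lower, 2.82 to 3.76). The H2B gene *AT2G28720* had 402, 576 and 864 counts and passed 2-fold under total-count scaling (log2 ratio -1.02) and with TPM (-1.11), and the H4 gene *HIS4* had 233, 350 and 452. Most histone mRNAs of plants carry poly(A) tails, which the adapter of this library type requires.

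Other nuclear families with low medians include the PHD_2 zinc fingers and histone lysine methyltransferases. Of 17 PHD_2 genes 5 fell and none rose (median -0.58), and of 10 methyltransferases 3 fell (median -0.55). *ATX1*, the trithorax-type H3K4 methyltransferase, had 12, 17 and 37 counts (2.82-fold lower, 1.44 to 5.93). The PHD_2 and methyltransferase families share *ATX1* and other members. Among 35 genes of microtubule-based movement, mostly kinesins, 29 lay below 0 and 7 fell, and *AT5G27550* (KIN-14S) had 14, 22 and 36 counts. These genes have few counts, and for most single members the interval includes 2-fold differences as well as none.

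Cytosolic ribosomal protein genes shifted slightly the other way. Of 192 genes 176 lay above 0, and 1 passed 2-fold. *AT5G18380* (S16-3), the most counted, had 5989, 6099 and 5565 counts. The median of 0.25 was 0.20 under total-count scaling and 0.10 with TPM, a scale on which the median of all genes moved by -0.130.

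Because U6 RNA is a target of FIO1, the splicing factors and m6A genes were read as well. Of 32 SR protein and spliceosome genes 26 lay below 0 (median -0.24) and 2 fell, where 4.29% of all genes fell. *SR34b* had 15 counts in *fio1-1* beside 33 in *fio1-5* and 46 in Col-0 (2.80-fold lower, 1.54 to 5.40), and *SR34a* had 1, 5 and 16. *SR34a* reached the count minimum only through Col-0, so its fall was partly set by the minimum. *LSM8*, a nuclear-specific subunit of the ring that holds the end of U6, was level at 128, 146 and 140. *U1-70K*, a U1 protein that helps to find the 5′ splice site, had 31, 54 and 55 counts, a ratio of 0.617 (0.384 to 0.976).

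Among the m6A genes *MTA*, the catalytic subunit of the main mRNA methyltransferase, had 40, 48 and 65 counts, and *FIP37*, a scaffold of that complex, had 38, 43 and 50. The demethylase *ALKBH10B* and the reader *ECT2* were level, at 179, 219 and 190 and at 190, 157 and 199. Of the 12 genes 1 passed 2-fold, the reader *ECT4*, which has only 2, 17 and 5 counts. In the methionine cycle that supplies the methyl donor, 1 of 12 rose, *HMT-1* (99, 100 and 46 counts), where 9.50% of all genes rose.

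Of 14 flowering repressors past the minimum 3 fell in *fio1-1* and 1 rose, and of 10 promoters none passed 2-fold. Beside *FLC* the AP2-type repressors *TOE3* (18, 21 and 44 counts, 2.23-fold lower, 1.26 to 4.1) and *TOE2* (3, 8 and 10) fell. The gene that rose was *MAF4*, a relative of *FLC*, with 13, 10 and 5 counts and a ratio of 2.85 (0.953 to 10.2). *MAF4* reached the count minimum only with its *fio1-1* counts, and *FLC* and *TOE2* only with their Col-0 counts. Their calls were thus partly set by the minimum. *SVP*, a repressor that pairs with FLC, had 199 counts in *fio1-1* against 173 in *fio1-5* and 203 in Col-0, and *FRI*, the activator of *FLC*, had 32, 28 and 40. *SOC1*, a promoter of flowering that FLC represses, had 47, 63 and 29, a ratio of 1.78 (1.09 to 2.92). *SEP3*, a floral organ gene, had 23, 29 and 3 counts (8.40-fold, 2.54 to 43.7) and was the only one of 8 flower markers past the minimum, which it reached through the mutant libraries. None of the 16 clock genes passed 2-fold, and *TOC1*, an evening component, came closest with 232, 248 and 503 counts (1.98-fold lower, 1.69 to 2.32), and passed it under total-count scaling (log2 ratio -1.03) and with TPM (-1.1). Clock transcripts depend on the hour of harvest, which is not given in the sources used here.

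Isoform content was compared for the 1655 genes with at least 50 counts in *fio1-1* and in Col-0 and at least 2 isoforms with a count. An isoform's share is the percentage of its gene's counts. It was called when it differed by at least 20 percentage points between *fio1-1* and Col-0 and the 95% Wilson intervals did not overlap. Of the 1655 genes 42 had such an isoform (2.54%), with 34 isoforms up and 38 down. Just inside the cutoff were AT2G22990.t2 of *SNG1* (a shift of -20 points) and AT4G36730.1 of *GBF1* (20.1 points). Just outside it were AT5G22875.3 (19.9) and AT3G56130.5 (-19.9), while AT5G49710.3 (20.2) and AT4G21910.1 (-20.9) were not called because their intervals overlapped. For 32 of the 42 genes the isoforms that gained and lost most are both in the reference annotation (RefSeq, TAIR10.1), and these were compared there.

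The isoform pairs differed by 5′ splice sites in 11 genes and by 3′ splice sites in 10. An intron was spliced out in the gaining isoform in 8 genes and retained in 6, and 2 differed by a skipped or gained exon. A pair can show more than one kind of event. In 27 genes the annotated start or end of the transcripts also differed, so the splice event is only one of the differences between the isoforms.

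The largest shift was in *PGRL1A*, which encodes a thylakoid protein of cyclic electron flow around photosystem I. Isoform AT4G22890.5 made up 80.1% of 166 counts in *fio1-1* (73.3 to 85.5), 80.9% of 189 in *fio1-5* and 2.82% of 71 in Col-0 (0.776 to 9.70), and AT4G22890.1 dropped from 64.8% in Col-0 to 15.1% in *fio1-1*. The gaining isoform uses a 3′ splice site 6 bases further downstream, which takes 6 bases from the coding region. The sites are printed 5′ to 3′ because they carry this switch, with 8 intron bases in lower case, the last 2 bases of the intron in capitals and 5 exon bases after it. Both lie on the plus strand of TAIR10.1, at chr4:12007772-12007786 and chr4:12007778-12007792.
PGRL1A less used in fio1-1: cttccttaAGgtcca
PGRL1A more used in fio1-1: taaggtccAGtagga
Both mutant libraries had AT4G22890.5, the isoform with the downstream site, in more than 80% of counts, and Col-0 in under 10%. The gene has other isoforms with counts, and use of each site over all of them was not summed.

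Shifts of 3 bases between neighbouring 3′ splice sites occurred in 3 of the 15 genes with the largest shifts, all in coding sequence. In *AT1G15280*, annotated as a CASC3/Barentsz eIF4AIII-binding protein, isoform AT1G15280.2 rose from 49.4% of 89 counts in Col-0 (39.3 to 59.6) to 87.0% of 69 in *fio1-1* (77.0 to 93.0), with 68.6% in *fio1-5*. In *IQD14*, whose family binds calmodulin and microtubules, AT2G43680.1 had 82.2% in *fio1-1* against 65.4% in *fio1-5* and 49.2% in Col-0. In *TPR8* the gaining isoform AT4G08320.1 had 74.6%, 73.7% and 43.9%. The sites are set out as above because they show that *fio1-1* favoured the upstream site in *AT1G15280* and *IQD14* and the downstream one in *TPR8*. They lie on the plus strand of TAIR10.1 at chr1:5253539-5253553, chr1:5253536-5253550, chr2:18109473-18109487, chr2:18109470-18109484, chr4:5254603-5254617 and chr4:5254606-5254620, in the order printed.
AT1G15280 less used in fio1-1: tacacagcAGaggat
AT1G15280 more used in fio1-1: tgatacacAGcagag
IQD14 less used in fio1-1: tatgcagcAGgaacc
IQD14 more used in fio1-1: ttttatgcAGcagga
TPR8 less used in fio1-1: ttgtgaacAGcagaa
TPR8 more used in fio1-1: tgaacagcAGaacac
In each pair an AG dinucleotide follows the other at a distance of 3 bases.

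Of the 11 called pairs of 5′ splice sites, 5 lay 4 to 8 bases apart. In *AT4G40050*, known only by a domain of unknown function, isoform AT4G40050.2 rose from 38.6% of 137 counts in Col-0 (30.9 to 47.0) to 73.3% of 101 in *fio1-1* (63.9 to 80.9), with 74.3% in *fio1-5*, and its site lies 4 bases downstream. In *UTR6*, annotated as a nucleotide sugar transporter, AT3G59360.2 rose from 67.4% of 207 (60.8 to 73.4) to 95.3% of 148 (90.6 to 97.7) with a site 8 bases downstream, within an untranslated region. In *CLC-D*, an anion channel protein of the trans-Golgi network, AT5G26240.1 rose from 49.3% of 124 (40.7 to 58.0) to 76.5% of 81 (66.3 to 84.4) with a site 5 bases downstream. In *GATA24* (*ZML1*), a zinc-finger transcription factor, AT3G21175.1 fell from 36.2% of 69 (25.9 to 48.0) to 0 of 74 counts in *fio1-1* and 0 of 58 in *fio1-5*, and AT3G21175.2 with a site 6 bases upstream rose from 63.8% to 85.1%. In *AT5G64460*, a phosphoglycerate mutase-like gene, AT5G64460.3 fell from 57.5% of 111 (48.2 to 66.3) to 33.2% of 57 (22.4 to 46.2). AT5G64460.5, with a site 5 bases upstream, rose from 0.901% to 10.5%, a change that was not itself called. It had only 1 count in Col-0 and 6 in *fio1-1*, and it also retains a 73-base intron. In the printed pairs, less and more used mean the sites of the isoforms that lost and gained most. Use of each site over all isoforms of a gene was not summed. The 5 pairs show 5 exon bases, then the first 6 intron bases in capitals, then 4 more intron bases, because those capitals take in the start of the intron, where U6 pairs. In the order printed they lie at chr4:18561983-18561997 and chr4:18561979-18561993 on the minus strand, chr3:21935802-21935816 and chr3:21935794-21935808 on the minus strand, chr5:9194097-9194111 and chr5:9194102-9194116 on the plus strand, chr3:7423330-7423344 and chr3:7423324-7423338 on the plus strand, and chr5:25775468-25775482 and chr5:25775473-25775487 on the minus strand of TAIR10.1.
AT4G40050 less used in fio1-1: tcaagGCAGGTttgt
AT4G40050 more used in fio1-1: ggcagGTTTGTcata
UTR6 less used in fio1-1: taaatGTAAACaggt
UTR6 more used in fio1-1: aacagGTTCTCtcca
CLC-D less used in fio1-1: ctagtGTAAGGtctc
CLC-D more used in fio1-1: gtaagGTCTCTagct
GATA24 less used in fio1-1: tactgGTAATAaaag
GATA24 more used in fio1-1: ataggGTACTGgtaa
AT5G64460 less used in fio1-1: gtaagGTTAAAccaa
AT5G64460 more used in fio1-1: cctgtGTAAGGttaa
The less used site of *AT4G40050* begins with GC, and in *UTR6* and *CLC-D* the base before the intron is T at the less used and G at the more used site. *AT5G64460* has the reverse, G at the less used and T at the more used site. The 5 genes were shown for their short distance between sites, and *UTR6*, *CLC-D* and *AT5G64460* were picked after their values were seen, so the letters are a description of these pairs.

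Over the 11 called pairs of 5′ splice sites the letters were less one-sided. A pair was taken as called when any isoform of its gene was called, so a site can belong to an isoform that was not. Such isoforms are AT4G28040.2 (a shift of -7.30 points), AT3G48880.2 (-17.1) and AT5G64460.5 (9.59). G stood before the intron in 7 less used and 8 more used sites, and T in 4 and 2, while over all 129620 annotated 5′ splice sites 76.1% had G there and 10.4% had T. The fourth intron base was A in 5 less used and 7 more used sites and G in 3 and 0, against 53.3% and 5.97% of all sites. In the larger set of 26 pairs from genes with a shift of at least 10 points, called or not, A went the other way. There the fourth base was A in 13 less used and 10 more used sites and G in 5 and 3. The fifth base was G in 16 and 9 and T in 5 and 10, against 49.5% and 20.4% of all sites.

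Changes in intron splicing were called in genes of varied function. In *AT2G26695*, whose product is annotated as hypothetical, the isoform with a 116-base intron removed (AT2G26695.1) had 68.9% of 106 counts in *fio1-1* (59.5 to 76.9), 38 of 95 in *fio1-5* and 26.4% of 91 in Col-0 (18.4 to 36.2). In *AT2G38710* the isoform that retains a 295-base intron (AT2G38710.2) had 40.7% of 181 counts in *fio1-1* (33.8 to 47.9), 2.80% in *fio1-5* and 6.06% in Col-0 (2.81 to 12.6). Retention was thus more frequent in *fio1-1* alone for *AT2G38710*.

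*HTA8*, an H2A.Z histone variant, and *IPK2A* (*AT5G07370*), a kinase of inositol polyphosphates, gained isoforms that were at 0 in Col-0. AT2G38810.2 had 33.3% of 51 counts in *fio1-1* (22 to 47.0), 16.2% of 80 in *fio1-5* and 0 of 71 in Col-0 (Wilson upper limit 5.10%). AT5G07370.3 had 35.2% of 74 counts, 8.04% of 50 and 0 of 65 (upper limit 5.62%). In both the gaining isoform lacks an intron that the losing one keeps, of 144 bases in *HTA8* and 382 in *IPK2A*.

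*ATG4B* (*AT3G59950*), a protease that prepares ATG8 for autophagy, showed both kinds of event in one pair. AT3G59950.1 had 83.1% of 166 counts in *fio1-1* (76.7 to 88.1), 60.2% of 199 in *fio1-5* and 50.5% of 188 in Col-0 (43.4 to 57.5). It differs from AT3G59950.2 by a 3′ splice site 20 bases away and by removal of a 90-base intron. The shift of AT3G59950.2 was -28.4 percentage points in counts and -9.21 with shares of TPM, below the cutoff. In *AT1G63770*, an M1 family aminopeptidase, AT1G63770.4 had 92.9% of 56 counts, 85.1% of 40 and 39.9% of 58, but the transcripts also differ by 180 bases at one annotated end.

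In 10 of the 42 genes the isoform that gained or lost most is not in the reference annotation, so its structure was not compared. AT5G63000.t1, from a gene of the Tim17/Tim22/Tim23 import family, had 72.2% of 180 counts in *fio1-1* (65.2 to 78.2), 30.1% of 113 in *fio1-5* and 4.65% of 108 in Col-0 (2.00 to 10.4). In *RCA*, Rubisco activase, AT2G39730.2 had 56.3% of 107 counts, 44.9% of 147 and 28.5% of 137. *AP4.3A* (*AT2G32800*), a lectin receptor kinase, had 71.7% of 81, 46.4% of 28 and 38.9% of 54 for AT2G32800.t1.

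**Figure D4:**
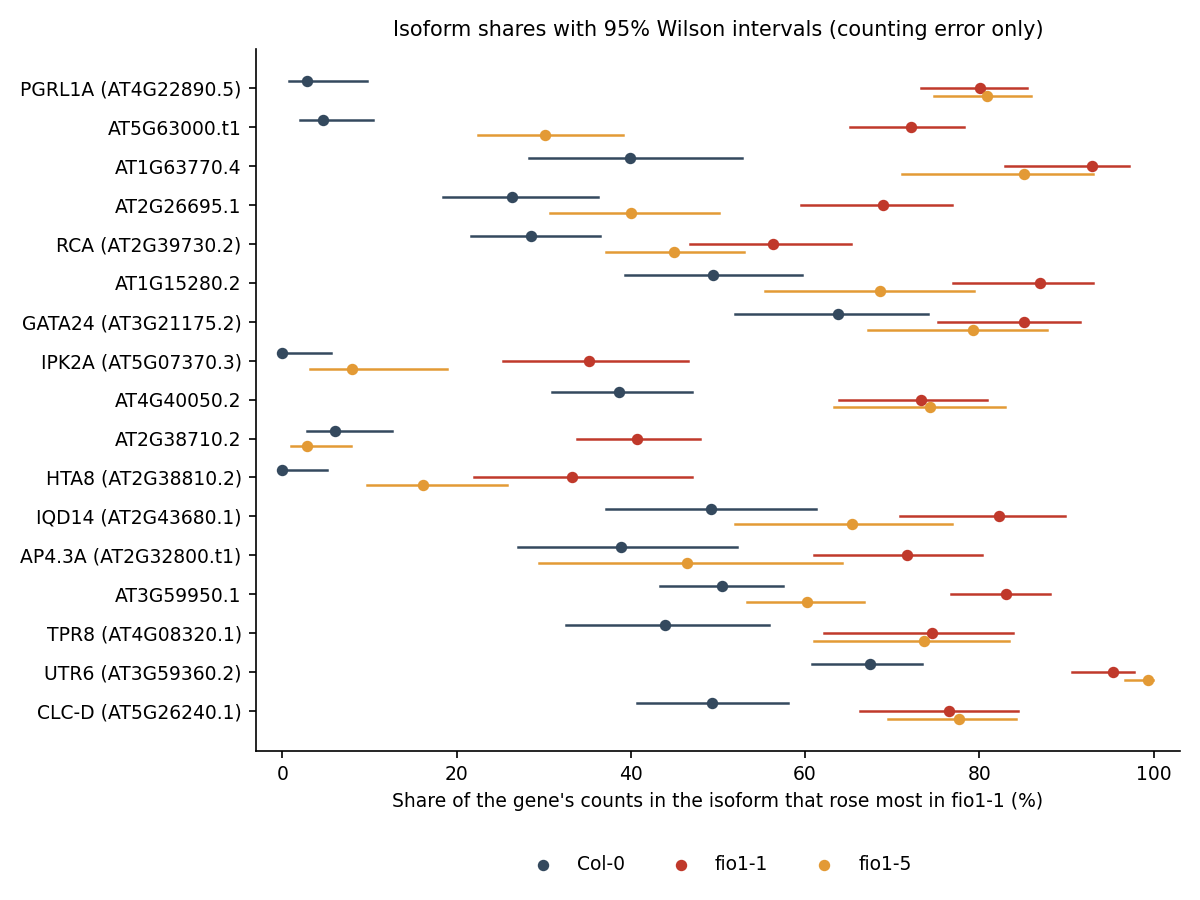
Share of the gene's counts (%) in the isoform that gained most, with 95% Wilson intervals that cover counting error only, in Col-0 (dark blue), *fio1-1* (red) and *fio1-5* (orange), for the 15 genes with the largest called shifts and for *UTR6* and *CLC-D*. *PGRL1A* goes from 2.82% in Col-0 to about 80% in both mutants, while *AT2G38710* reaches 40.7% in *fio1-1* only.

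Isoform counts have a limit of their own. The 11720 genes with 2 or more listed isoforms hold 33.1% of the counts and the 21594 genes with 1 listed isoform 66.9%. *RCA*, whose mRNA is abundant in leaves, has 107 counts in *fio1-1* and 137 in Col-0, and *NPQ4* (*PSBS*) has 8 and 11. How reads shared by several isoforms were treated is not stated, so levels of genes with several isoforms are uncertain, and shares describe only the reads that were assigned.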

How the data were processed

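The study sequenced RNA of whole 14-day-old seedlings directly on the Nanopore platform, and the counts are read here as coming from those libraries. Per the study's methods, the authors used Guppy for base calling, Nanofilt for filtering and Fclmr2 for read correction, and mapped the reads with Minimap2 (2.17-r941 in the submitters' processing notes). The counting tool, strand handling, build and annotation are not given in the sources used here. The authors deposited estimated counts per isoform, and the TPM values deposited by the authors sum to 1000000 per library. Deposited correlation coefficients between libraries were not used.

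Estimated counts were summed per gene and rounded, then scaled with TMM factors (edgeR 4.0.16, R 4.3.3). Log2 ratios had 0.5 counts added. Folds had none, and a count of 0 was set against 3 counts. Intervals are exact conditional binomial ones for ratios and Wilson ones for shares, at 95%. The remaining steps ran in Python 3.11.15 and were tested on simulated data. Splice sites were read from RefSeq TAIR10.1, and families from the table's Pfam and GO columns, those sharing over 50% of their genes being merged into the larger. Symbols *GC1*, *MTB*, *HIZ1*, *HIZ2* and *IMA1* to *IMA3* matched no row by name, and loci that the table and the reference leave unnamed were not assigned to them.

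Named genes were *FIO1* and *FLC*, the 10 largest rises and falls with 100 or more counts over both libraries, the most counted member of each list and family with up to 4 of the largest changes among those with 30 or more counts, and the 15 largest isoform shifts. Other named members, including those of the 6 added domain families, were picked after their values were seen. Members and lists were chosen with earlier results of these data known. The alternatives were total-count scaling, DESeq2 1.42.0 size factors, TPM, 2 counts added, other count minimums and cutoffs, and thinned libraries.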

Additional observations from a re-analysis of the deposited data

How the results depend on the processing

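The number of genes at least 2-fold higher in *fio1-1*, 1561, became 953 with the deposited TPM, 3628 without a count minimum, 621 with at least 100 counts and 366 at a 4-fold cutoff. The 704 lower genes became 2473 without a minimum, 164 with at least 100 counts and 96 at 4-fold. The 42 genes with an isoform shift became 96 at 20 counts in both libraries, 13 at 100 counts, 97 at 10 percentage points and 17 at 30. TPM moved the median of all genes by -0.130. With TPM the list medians became -0.35 for photosystem subunits, -0.41 for chlorophyll synthesis, -0.58 for histones, 0.10 for ribosomal proteins, 0.13 for trichome markers and 2.04 for flower organs. Total-count scaling gave 0.20 for ribosomal proteins, 0.23 for trichome markers and 2.82 for flower organs. For flower organs, where only *SEP3* passed the minimum, DESeq2 size factors gave 2.86, 2 counts added 2.42 and no minimum 0.04. The causes of these differences were not tested, except that fewer or more genes are examined when a minimum changes. The other 250 alternative values for list medians lay within the binomial rank interval of the median, and 1001 of 1064 for named genes and 82 of 84 for isoform shifts (all but AT3G59950.2 at -9.21 and AT5G22875.3 at 9.33 points with TPM shares) lay within the counting error, and no value of 2-fold or more and no called share shift changed sign. With 1 library per genotype no replicate could be left out. No paired analysis was possible because each genotype has 1 library and no test was run. Depth limits genes with few counts, for which a 2-fold difference can lie within counting error.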

Other observations

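Genes responding to sugar starvation and darkness were above 0 in 16 of 19 cases in *fio1-1*, with 5 at least 2-fold higher and none lower, and the list had a median of 0.50 for *fio1-1* over Col-0 and -0.68 for *fio1-5* over the same Col-0 library. *DIN11* had 46 counts in *fio1-1* beside 24 in *fio1-5* and 16 in Col-0 (3.15-fold higher in *fio1-1*, 1.75 to 5.96), and *TPS10*, a trehalose phosphate synthase-like gene, had 29, 10 and 6. *TPS10* reached the count minimum only through *fio1-1*, so its rise was partly set by the minimum. *DIN6*, an asparagine synthetase, had 162, 34 and 161 counts. *STP1*, a hexose importer, had 2088, 863 and 1576 and did not pass 2-fold. The difference between the alleles was not tested.

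Single genes of light signalling stood apart from their lists. *HFR1*, a basic helix-loop-helix factor that restrains shade growth, had 44 counts in *fio1-1* against 90 in *fio1-5* and 10 in Col-0 (4.82-fold higher in *fio1-1*, 2.39 to 10.7). *RPT2*, a phototropism protein, had 10, 91 and 57 counts (5.20-fold lower, 2.63 to 11.4). The GATA factor *CGA1*, which promotes chloroplast development, had 15, 15 and 47 (2.86-fold lower, 1.57 to 5.51). In the copper list *FSD1*, the iron superoxide dismutase of plastids, had 8122, 7942 and 4342 counts (2.05-fold higher, 1.97 to 2.13), below 2-fold with TPM, and *COPT2*, a copper importer, had 372, 337 and 173. Among the few plastid-encoded genes past the minimum, 4 of 5 fell, and none had more than 27 counts in a library.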
